A study of Mus musculus with 8 samples.

Results

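The genes of glycolysis, of pyruvate use and of the response to low oxygen were followed in mouse cumulus cells through ovulation. The set holds 42 named genes, chosen for their roles in these pathways, though with earlier results of these data known. Of these, 35 were measured, of 8251 genes with a probe set of their own, and where a gene had several probe sets the brightest on average stands for it. The other 7 (Gpi1, Gapdh, Eno1, Pdk2, Pfkfb1, G6pdx and Car9) had no probe set carrying their symbol alone, apart from the Affymetrix control probe sets of Gapdh. The cells came from immature female C57Bl/6 mice of 3-4 weeks, either Ptger2(-/-) (EP2KO), in which the gene of the prostaglandin E2 receptor EP2 is knocked out, or wild type (WT). All mice were primed with 5 IU of PMSG, an FSH-like hormone, for 48 h. Cells were taken then (0 h, no hCG) or 3, 9 or 14 h after 5 IU of hCG, which acts as the LH surge. There was 1 array per genotype and time, 8 in all, so no group has a replicate, and the labels do not say how many animals were pooled for an array. At 0, 3 and 9 h the cells were stripped by hand from complexes of punctured follicles. At 14 h they were released with hyaluronidase from ovulated complexes of the oviduct, so ovulation and the way of collection cannot be told apart.

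Cumulus cells break down glucose for themselves and for the oocyte, which uses glucose poorly and takes up the pyruvate that they make. Hexokinases trap glucose in the cell, phosphofructokinase commits it to glycolysis, and pyruvate kinase closes the pathway. Pyruvate then becomes lactate through lactate dehydrogenase or enters mitochondria through pyruvate dehydrogenase, which the PDK kinases switch off. Glucose 6-phosphate can also enter the pentose phosphate pathway, which supplies NADPH and ribose, or the hexosamine pathway, which feeds hyaluronan synthesis. When oxygen is low, the transcription factor HIF-1 binds hypoxia response elements and raises many glycolytic genes, Vegfa and Pdk1 among them.

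The promoters of several members carry the core letters of such elements. Windows of 300 bases, from 250 before to 50 after a RefSeq gene start (GRCm38.p6), were found for 34 of the 35 genes. The letters ACGTG or GCGTG, searched on both strands, were present in at least 1 window of 30 of these 34 genes (88.2%). The same held for 63.3% of the 6576 array genes with a window, and for 43.8% of all 32851 windows. The members had 1.56 windows per gene against 1.28 for the array genes, which raises the chance of a match. ACGTG, with or without GCGTG, was found for 19 members (55.9%, against 27.8% of array genes). GCGTG, with or without ACGTG, was found for 24 (70.6%, against 52.0%). The E-box CACGTG, which contains ACGTG, was found for 6 (17.6%, against 11.5%). The letters CGTCA, the core of the cAMP response element, were found for 11 (32.4%, against 33.1%). The windows below are, for each gene, the one with most of these letters. Pgk1 and P4ha1 are examples of genes that rose at 3 h and fell from 3 to 9 h, as Vegfa, Tkt, Pdhb and Ldhb also did. Ak4, Ldha and Pdk1 are examples of the 22 of 35 genes that read lower in EP2KO than in WT ovulated cells. Of those not shown, Pfkl (−0.53), Pgam1, Hif1a and Pdha1 differed by more than Pdk1 (−0.35). Each difference is 1 array against 1 array, and none of these differences between genotypes passed a test. Capitals mark ACGTG and GCGTG, or their complements CACGT and CACGC, and the Ldha window holds 7 of them. A CACGTG holds both CACGT and ACGTG and is counted for each, so the 7 are not all separate stretches. A match of letters is a description and not a binding site.
Pgk1, chrX:106186850-106187149, plus strand: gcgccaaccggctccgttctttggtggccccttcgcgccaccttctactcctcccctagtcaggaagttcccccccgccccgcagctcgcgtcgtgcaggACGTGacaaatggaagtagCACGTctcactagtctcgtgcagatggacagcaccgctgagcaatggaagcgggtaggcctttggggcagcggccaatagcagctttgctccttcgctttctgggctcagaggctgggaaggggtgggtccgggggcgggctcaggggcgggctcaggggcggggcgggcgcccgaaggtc
P4ha1, chr10:59323046-59323345, plus strand: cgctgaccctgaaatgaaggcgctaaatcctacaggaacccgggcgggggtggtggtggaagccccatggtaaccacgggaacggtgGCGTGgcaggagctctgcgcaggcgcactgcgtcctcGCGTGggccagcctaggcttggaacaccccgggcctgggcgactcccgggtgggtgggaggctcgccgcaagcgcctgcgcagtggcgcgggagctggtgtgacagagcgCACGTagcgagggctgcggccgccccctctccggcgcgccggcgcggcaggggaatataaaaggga
Ldha, chr7:46845554-46845853, plus strand: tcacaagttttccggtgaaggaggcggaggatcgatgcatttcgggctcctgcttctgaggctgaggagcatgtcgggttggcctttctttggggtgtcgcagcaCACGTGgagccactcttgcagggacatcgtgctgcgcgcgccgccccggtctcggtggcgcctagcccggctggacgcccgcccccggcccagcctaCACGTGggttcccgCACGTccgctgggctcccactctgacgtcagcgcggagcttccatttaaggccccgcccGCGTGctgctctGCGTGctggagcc
Ak4, chr4:101419453-101419752, plus strand: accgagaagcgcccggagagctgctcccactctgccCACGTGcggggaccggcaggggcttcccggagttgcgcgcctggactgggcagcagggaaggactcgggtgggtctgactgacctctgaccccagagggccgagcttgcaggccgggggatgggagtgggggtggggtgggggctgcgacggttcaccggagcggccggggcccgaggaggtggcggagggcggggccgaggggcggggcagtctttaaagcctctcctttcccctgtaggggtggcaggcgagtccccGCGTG
Pdk1, chr2:71872974-71873273, plus strand: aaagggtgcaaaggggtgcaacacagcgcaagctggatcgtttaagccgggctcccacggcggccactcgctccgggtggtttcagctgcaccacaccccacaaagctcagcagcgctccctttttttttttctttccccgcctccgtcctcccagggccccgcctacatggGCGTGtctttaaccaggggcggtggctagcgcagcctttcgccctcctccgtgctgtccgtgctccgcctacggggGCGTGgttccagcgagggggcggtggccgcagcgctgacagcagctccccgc

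The values are log2 signals, so a difference of 1 is a 2-fold change, and probe sets of different genes are not compared with each other. Array medians lay between 7.79 and 7.89. Ptger2 read 4.24 to 4.69 in the 4 EP2KO arrays, against 4.95 to 5.97 in the 4 WT arrays, with no overlap. Of 12 measured granulosa and cumulus markers, 9 to 12 were above the array median on each array, against 1 to 3 of 12 oocyte markers. The control probe sets of Gapdh give a measure of RNA length, as the 3' minus 5' difference grows when RNA or cRNA is short. It was 2.82 in EP2KO and 2.87 in WT at 14 h, against 0.80 to 1.86 on the 6 earlier arrays. In these bulk samples fewer cells of a type and less RNA per cell cannot be told apart. Time contrasts were tested with limma with time and genotype as terms, so that each time has 2 arrays, and p-values were adjusted over all 12422 probe sets. They measure the spread between single arrays of different genotypes, part of which may be technical, and a gene is said to rise or fall where its adjusted p is under 0.05.

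The first contrast, 3 h against 0 h, asks what the ovulatory signal does soon after it arrives. Both measured hexokinases, the pentose phosphate enzymes Taldo1 and Tkt, and the hypoxia genes Vegfa and P4ha1 rose by 3 h. In all, 11 of the 35 genes rose and 2 fell. The background was 20.1% of genes higher and 23% lower, 43.1% called, beside 13 of 35 (37.1%) here, so calls were no more frequent than elsewhere on the array. The median change of the 35 genes was 0.12 at 3 h, while that of all genes was −0.10, and all probe sets together shifted by −0.135 as deposited and by −0.06 after median centring of the arrays. The standard deviation over probe sets was 1.96 in EP2KO and 1.99 in WT at 3 h, against 1.77 to 1.91 on the other arrays. The Gapdh 3' minus 5' difference was smallest at 3 h, 0.96 in EP2KO and 0.8 in WT, against 1.22 to 2.87. The part of either in the changes to and from 3 h was not tested. Under quantile normalization 10 of the 35 rose and 8 fell. Of the 5 genes that changed at least 2-fold, all rose, where 6.06% of genes did so in either direction.

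Hexokinases phosphorylate glucose and hold it in the cell. Hk1, the widely expressed form, read 10.20, 11.45, 11.34 and 9.49 in EP2KO at 0, 3, 9 and 14 h, and 9.84, 11.46, 11.01 and 9.26 in WT. Both genotypes stood higher at 3 and 9 h than at 0 h, and both fell below their 0 h level at 14 h. The rise at 3 h was 1.44 ± 0.129 (SE, n = 2 arrays per time; adjusted p = 6.89e-05), and the fall at 14 h against 0 h was −0.65 ± 0.129 (adjusted p = 0.00353). Hk2, the inducible form that binds mitochondria, read 9.84, 10.43, 10.70 and 10.45 in EP2KO, and 9.37, 11.09, 10.97 and 10.51 in WT. All 6 arrays after hCG lay above both 0 h arrays. Hk2 rose by 1.16 ± 0.212 at 3 h (adjusted p = 0.00248), by 1.23 at 9 h and by 0.88 at 14 h, the last being lost without the WT 0 h array (0.475) or the EP2KO 14 h array. The 2 forms thus ended on opposite sides of their 0 h levels. The change of Hk2 at 3 h was 0.59 in EP2KO and 1.72 in WT, and without the WT 0 h array the estimate was 0.76, still called. A second Hk2 probe set read 4.59 to 5.02 on the 8 arrays and was not called at any time.

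Vegfa, the angiogenic growth factor, made the largest change of the 35 genes at 3 h. It read 6.40, 7.81, 6.58 and 7.12 in EP2KO at 0, 3, 9 and 14 h, and 5.94, 8.31, 6.34 and 7.12 in WT. Both genotypes peaked at 3 h and came back most of the way by 9 h. Both 0 h values lie well below the array medians, and the probe set drops out when the lowest 40% are left out. The rise at 3 h was 1.89 ± 0.193 (adjusted p = 1.27e-04), followed by a change of −1.60 from 3 to 9 h and a level 0.95 above 0 h at 14 h (adjusted p = 0.00396). P4ha1, a subunit of the prolyl hydroxylase that matures collagen, read 9.38, 10.22, 9.82 and 9.98 in EP2KO, and 8.92, 10.59, 9.53 and 10.23 in WT. It rose by 1.26 ± 0.191 at 3 h (adjusted p = 9.73e-04) and stood 0.95 ± 0.191 above 0 h at 14 h. Without the WT 0 h array neither Vegfa nor P4ha1 was called at 14 h. Hif1a, the oxygen-regulated subunit of HIF-1, read 12.74 to 13.51 over the 8 arrays. Its changes from 0 h, 0.33, 0.38 and 0.41 at 3, 9 and 14 h, did not pass, and its protein, which oxygen controls, was not measured.

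Taldo1 and Tkt, transaldolase and transketolase of the pentose phosphate pathway, moved apart after 3 h. Taldo1 read 9.73, 10.68, 10.97 and 10.06 in EP2KO, and 9.35, 10.82, 10.79 and 10.18 in WT, higher at 3 and 9 h than at 0 or 14 h in both. It rose by 1.21 ± 0.147 at 3 h (adjusted p = 3.05e-04) and by 1.34 at 9 h, and was still 0.58 above 0 h at 14 h, a call lost without the WT 0 h array (0.377) or the WT 14 h array. Tkt rose by 0.92 at 3 h, was back at −0.03 at 9 h without passing, and fell to 0.77 below 0 h at 14 h (log2 change −0.77 ± 0.153, adjusted p = 0.00349). Pgd, which makes NADPH, was not called at 3 or 9 h but rose by 0.66 ± 0.121 at 14 h, reading 10.81 in EP2KO and 11.02 in WT at 14 h, against 10.27 in EP2KO and 10.24 in WT at 0 h. A second, dimmer Pgd probe set stood at −0.78 at 3 h, which passed, and at 0.01 at 14 h, which did not.

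Other changes at 3 h were smaller. Pgk1, which makes the first ATP of glycolysis, rose by 0.94 ± 0.207, Pdhb, a subunit of pyruvate dehydrogenase, by 0.89 ± 0.185, and Pdk3, one of the kinases that inhibit it, by 0.70 ± 0.146. Gpd2, the mitochondrial arm of the glycerol phosphate shuttle, rose by 0.76 ± 0.189, while Gpd1, its cytosolic partner, fell by 0.68. Ldhb, the lactate dehydrogenase subunit typical of oxidative tissues, rose by 0.54 ± 0.128, but its other probe set, which read 4.99 to 5.68, fell by 0.54. Pdk1, the kinase best known as a HIF-1 target, fell by 0.60. With the WT 0 h array left out, 7 of the 35 genes were called at 3 h, all of them higher, and the count was again 7, all higher, when the WT 3 h array was left out instead. Without the WT 3 h array the estimate was 0.427 for Gpd2 and −0.373 for Pdk1, neither called. Both counts included Hk1, Hk2, Tkt, Taldo1, Vegfa and P4ha1.

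**Figure D1:**
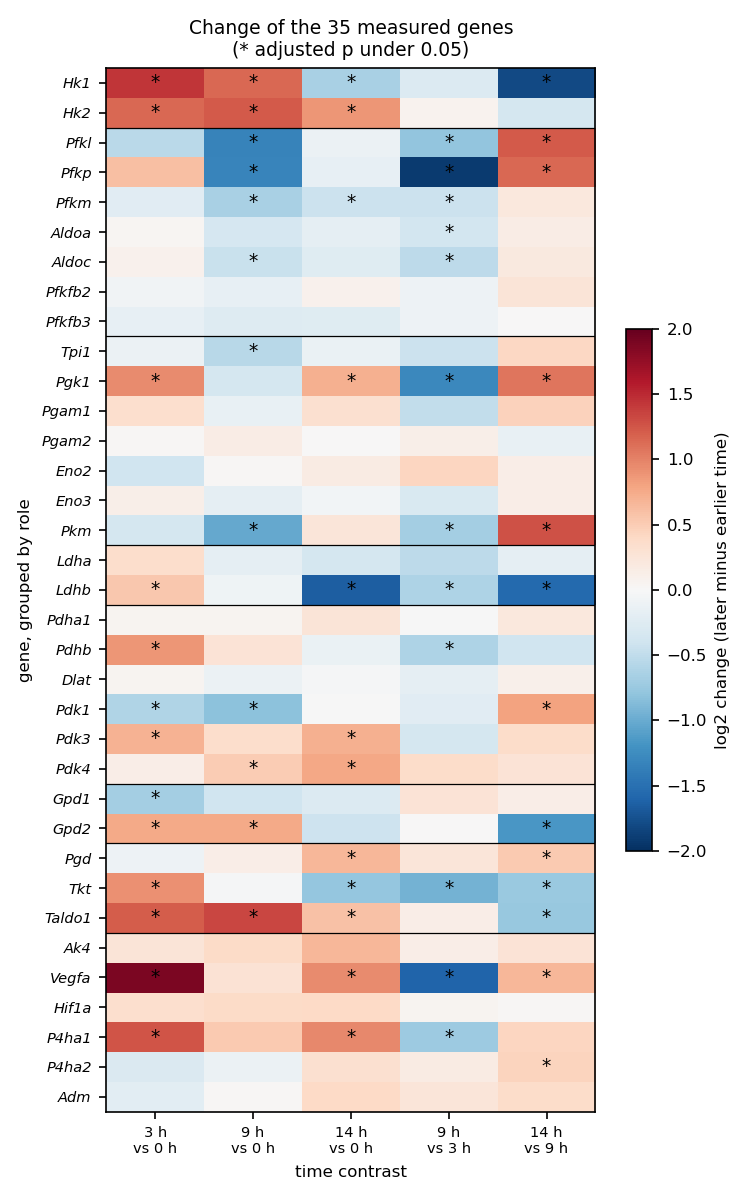
Log2 change of the 35 measured genes (rows, grouped by role and separated by lines) in 5 time contrasts (columns), averaged over genotypes. Asterisks mark an adjusted p under 0.05. Red is higher at the later time. Hk1, Hk2, Taldo1, Vegfa and P4ha1 are red at 3 h, and Ldhb and Hk1 are dark blue in the last column. The phosphofructokinases and Pkm are blue at 9 h and red from 9 to 14 h, where Pfkm has no asterisk.

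From 3 to 9 h, 12 of the 35 members fell, none rose and 23 were not called, the hexokinases among them, against a background of 13.8% of genes lower and 7.42% higher, 21.2% called. Of the 12, 3 fell at least 2-fold, where 3.25% of genes changed so in either direction. With quantile normalization 8 fell and 1 rose. With the probe sets of a gene averaged, 8 of the 12 stayed called. A second Ldhb probe set gave 0.37 against −0.625, and a second Pkm probe set −0.035 against −0.685, neither of the second ones called. Relative to 0 h, 7 members were lower and 5 higher at 9 h, where 11.6% and 12.2% of all genes were, 23.8% called, and 6 members changed at least 2-fold beside 4.9% of genes. The 7 that fell were the 3 phosphofructokinases, Aldoc, Tpi1, Pkm and Pdk1, and the 5 that rose were Hk1, Hk2, Taldo1, Gpd2 and Pdk4, whose call was lost in 5 of the 8 fits that left out 1 array, with 0.213 without the EP2KO 0 h array. The genes at the entry of glucose into the cell's pathways thus stood above, and those of the committed step and of pyruvate formation below, their levels before hCG.

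Phosphofructokinase has 3 isoforms, named for liver, platelet and muscle. Pfkl, the liver form, read 11.83, 11.38, 10.68 and 11.30 in EP2KO at 0, 3, 9 and 14 h, and 11.52, 10.88, 10.01 and 11.83 in WT. The 9 h arrays were the lowest of their genotype, and at 14 h only WT stood above its 0 h level. Pfkl fell by 1.33 ± 0.232 at 9 h against 0 h (adjusted p = 0.00262) and rose by 1.22 ± 0.232 from 9 to 14 h (adjusted p = 0.00376). That rise was 0.708 without the WT 14 h array, still called, and its change from 3 to 9 h, −0.785, was −0.497 without the WT 9 h array and not called. Pfkp, the platelet form, read 10.06, 10.30, 8.90 and 9.51 in EP2KO, and 9.56, 10.53, 8.09 and 9.78 in WT. Its drop from 3 to 9 h, −1.92 ± 0.234, was the lowest change of the set in that interval (adjusted p = 7.12e-04), and a second Pfkp probe set gave −1.52. Pfkm, the muscle form, fell by 0.65 ± 0.115 at 9 h against 0 h, and by 0.44 at 14 h.

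Pkm, pyruvate kinase, read 13.16, 12.67, 12.14 and 13.17 in EP2KO, and 12.77, 12.57, 11.73 and 13.25 in WT. Both genotypes reached their lowest value at 9 h and were back at or above the 0 h level at 14 h. The fall at 9 h against 0 h was −1.03 ± 0.144 (adjusted p = 7.2e-04) and the rise from 9 to 14 h was 1.28 ± 0.144 (adjusted p = 1.65e-04). A second Pkm probe set gave −0.38 at 9 h, which did not pass. Pgk1 read 12.02, 12.70, 11.80 and 12.37 in EP2KO, and 11.62, 12.82, 11.13 and 12.69 in WT, up at 3 and 14 h and down at 9 h. From 3 to 9 h it fell by 1.30 ± 0.207 (adjusted p = 0.00261), and from 9 to 14 h it rose by 1.07 ± 0.207 (adjusted p = 0.00425).

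The other trunk enzymes moved less. Tpi1, which interconverts the triose phosphates, fell by 0.55 at 9 h against 0 h and Aldoc, an aldolase, by 0.44. Neither was called without the EP2KO 0 h array (Aldoc −0.26) or the WT 9 h array (Tpi1 −0.358). Aldoa, the main aldolase of muscle and many other tissues, fell by 0.38 from 3 to 9 h. Under quantile normalization this was −0.311 and not called, and a second Aldoa probe set gave 0.065, which did not pass. Pgam1, phosphoglycerate mutase, read 11.18 to 11.98 over the 8 arrays and was not called in any time contrast. Nor were Pgam2, Eno2 and Eno3, the forms known from muscle and neurons, or Pfkfb2 and Pfkfb3, which set the level of the activator fructose 2,6-bisphosphate. Aldoa, Gpd2, P4ha2 and Hif1a are read by probe sets of the _f type, which may also detect related sequences.

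The falls of Pfkl, Pfkp and Pkm at 9 h were present in both genotypes. The change of Pfkl was −1.15 in EP2KO and −1.51 in WT, that of Pfkp was −1.16 in EP2KO and −1.47 in WT, and that of Pkm was −1.02 in EP2KO and −1.04 in WT. The WT 9 h array also carried the highest red cell signal, with a linear sum over 6 erythroid markers of 12969, against 3091 in EP2KO at 9 h and 2041 to 6146 on the other 6 arrays. This sum was led by the globins, with Hba-a1 at 13.39 on the WT 9 h array. With the WT 9 h array left out, 7 members were called at 9 h against 0 h. From 3 to 9 h, 4 were called with the WT 3 h array left out, 4 with the WT 9 h array left out, and 7 in a fit of only the 4 arrays of 3 and 9 h.

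**Figure D2:**
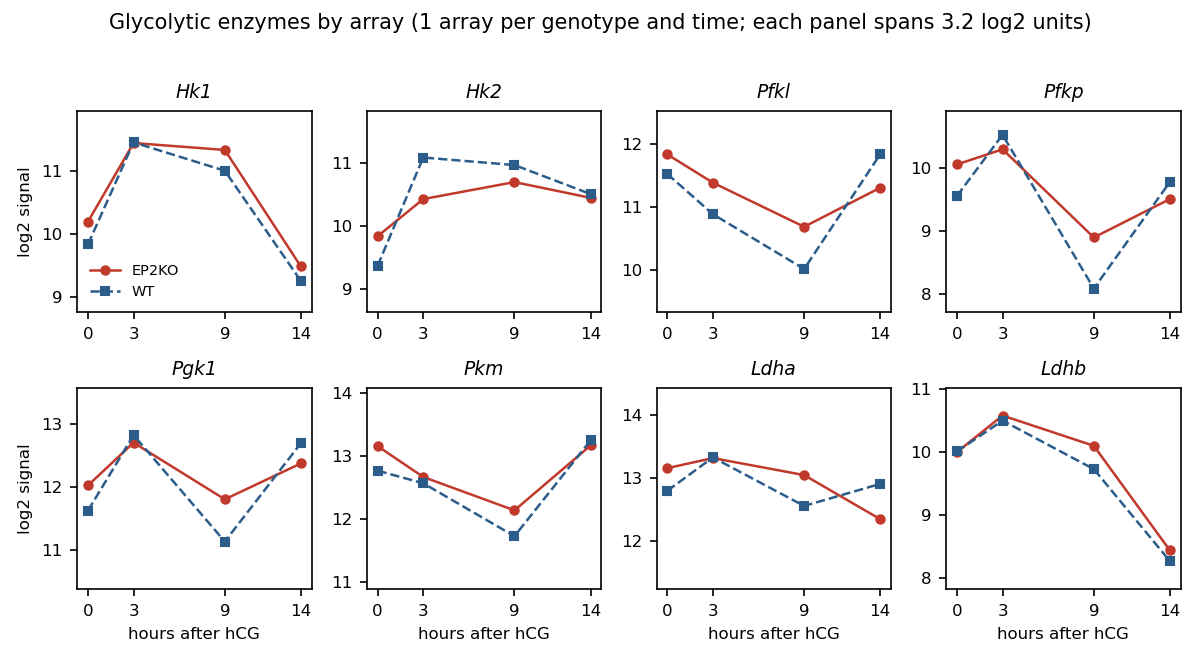
Log2 signal (y axis, each panel spanning the same width) of 8 glycolytic genes against hours after hCG (x axis), with 1 array per point, EP2KO as red circles with solid lines and WT as blue squares with dashed lines. Hk1 and Hk2 rise at 3 h. Pfkl, Pfkp, Pgk1 and Pkm reach their lowest point at 9 h in both genotypes, and Ldhb drops at 14 h to 8.44 in EP2KO and 8.27 in WT.

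From 9 to 14 h the trunk genes Pfkl, Pfkp, Pgk1 and Pkm rose, while Tpi1, Aldoa, Aldoc, Pfkm and Pgam1 were not called. Ldhb, Hk1, Tkt and Pfkm were lower at 14 h than before hCG. Against 0 h, 8 members were higher and 4 lower, beside 15.6% and 15.7% of all genes, 31.3% called, and 1 member, Ldhb, changed at least 2-fold beside 9.27% of genes. From 9 to 14 h, 8 members rose and 5 fell, beside 11.3% and 11.4% of all genes, 22.7% called. Of the 13 called from 9 to 14 h, 7 changed at least 2-fold, where 6.23% of all genes did. The 8 that rose from 9 to 14 h were Pfkl, Pfkp, Pgk1, Pkm, Pdk1, Pgd, Vegfa and P4ha2, and the 5 that fell were Hk1, Ldhb, Gpd2, Tkt and Taldo1. The rise of Vegfa, 0.66, was 0.65 under median centring and 0.628 under quantile normalization, called under neither. With 1 array left out it ran from 0.533 to 0.787, and that of P4ha2, 0.445, from 0.357 to 0.533.

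Lactate dehydrogenase is built from LDHA and LDHB subunits, of which LDHA is known to favour the making of lactate. Ldhb read 10, 10.58, 10.10 and 8.44 in EP2KO at 0, 3, 9 and 14 h, and 10.01, 10.50, 9.73 and 8.27 in WT. The 14 h arrays lay more than 1 below every earlier array of either genotype. The fall at 14 h against 0 h was −1.65 ± 0.128 (0.319-fold, adjusted p = 7.49e-06), the largest change of the 35 genes in that contrast, and its second, dim probe set gave −0.29 without passing. Ldha read 13.16, 13.32, 13.05 and 12.35 in EP2KO, and 12.80, 13.33, 12.56 and 12.91 in WT, and was not called in any time contrast. Its change at 14 h against 0 h was −0.35 (adjusted p = 0.25).

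At the gate to mitochondria, 3 kinases of pyruvate dehydrogenase were measured, and differences between them were not tested. Pdk1 fell by 0.82 ± 0.185 at 9 h against 0 h (adjusted p = 0.0108) and rose by 0.80 from 9 to 14 h, which was 0.435 and not called without the WT 14 h array. With 1 array left out the fall ran from −0.943 to −0.687, and its call was lost without the EP2KO 0 h, WT 0 h or WT 9 h array. Pdk3 stood 0.71 ± 0.146 above 0 h at 14 h and Pdk4, a kinase known to rise in fasting, 0.78 ± 0.161 above it. Pdk3 lost its call without the WT 0 h array (0.49) or the WT 14 h array (0.53), and Pdk4 without the EP2KO 0 h array (0.493). The Pdk4 level at 14 h was 9.34 in EP2KO and 9.05 in WT, against 8.34 in EP2KO and 8.49 in WT at 0 h. The subunits Pdha1 and Dlat were not called in any time contrast. Gpd2 read 9.42, 9.80, 9.98 and 9.07 in EP2KO, and 9.12, 10.26, 10.08 and 8.65 in WT, with both genotypes lowest at 14 h. It fell by 1.17 ± 0.189 from 9 to 14 h (adjusted p = 0.00141).

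Both 14 h arrays also had the long Gapdh 3' minus 5' difference given above and higher summed signals of leukocyte and oviduct epithelium markers. Over 17 leukocyte markers the linear sum was 6073 in EP2KO and 4696 in WT at 14 h, against 2755 to 3818 earlier. Over 9 oviduct epithelium markers it was 6442 in EP2KO and 5341 in WT, against 2746 to 3054 earlier, led by Ovgp1 at 11.46 in EP2KO and 11.13 in WT. At 14 h against 0 h, 8 of the 17 leukocyte markers were called higher and 9 were not called. Of the oviduct epithelium markers 4 were called higher and 1 lower, beside 15.6% and 15.7% of all genes. The leukocyte marker Ptprc read 5.65 in EP2KO and 5.61 in WT at 14 h, against 5.76 and 5.86 at 0 h. Foxj1, an oviduct epithelium marker, read 8.36 in EP2KO and 8.39 in WT, against 8.73 and 8.85. The sum over 12 granulosa and cumulus markers was 14189 in EP2KO and 17005 in WT, against 28960 to 58505 earlier. The part of these in the 14 h changes was not tested. With the WT 0 h array left out, 6 members were called at 14 h against 0 h, and Pgk1, 0.71 above 0 h at 14 h, stood at 0.392 and was not called with the WT 14 h array left out. From 9 to 14 h, 8 were called with the EP2KO 9 h array left out, 8 with the WT 9 h array left out, and 2, Hk1 and Ldhb, in a fit of only the 4 arrays of 9 and 14 h, which leaves few residual degrees of freedom. Pfkp lost its rise from 9 to 14 h without the WT 9 h array (0.75, adjusted p = 0.0529) or the WT 14 h array (0.84, adjusted p = 0.0599).

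**Figure D3:**
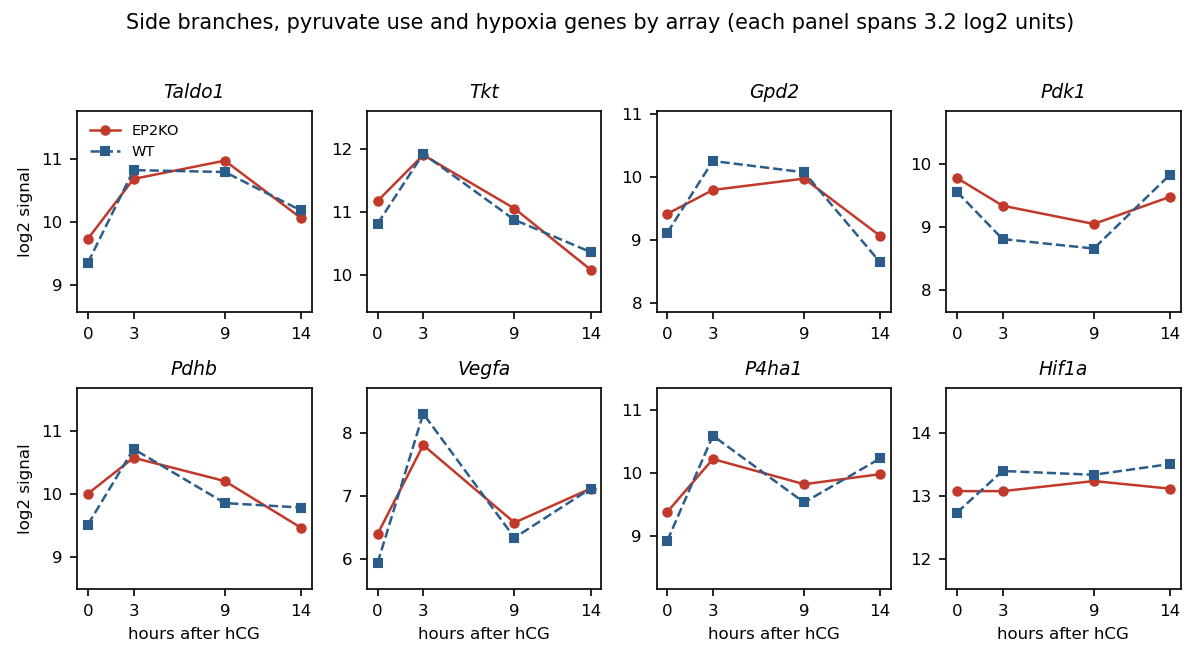
Log2 signal (y axis, each panel spanning the same width) of 8 genes of the side branches, pyruvate use and hypoxia response against hours after hCG (x axis), 1 array per point, EP2KO as red circles with solid lines and WT as blue squares with dashed lines. Vegfa and P4ha1 peak at 3 h, Taldo1 is high at 3 and 9 h, Gpd2 is lowest at 14 h, and Hif1a stays between 12.74 and 13.51.

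Neighbouring pathways were followed through lists of other genes. Of 9 measured hexose and monocarboxylate transporter genes, Slc2a1, the glucose transporter GLUT1, rose by 1.15 at 3 h and by 0.96 at 14 h. It read 8.19, 9.04, 8.44 and 8.86 in EP2KO at 0, 3, 9 and 14 h, and 8.08, 9.52, 8.46 and 9.32 in WT, up, down and up again as Vegfa was. Slc16a1, the monocarboxylate transporter MCT1, fell by 0.50 at 9 h and by 0.88 at 14 h, but it read only 4.77 to 5.99, well below the array medians. Relative to 0 h the only other called gene of this list was Slc2a4, the insulin-responsive transporter GLUT4, which fell by 0.44 at 3 h and by 0.37 at 9 h.

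Of 24 measured genes of pyruvate use and the citric acid cycle, 14 rose and 3 fell at 3 h (70.8% called, beside 43.1% of all genes). Their median change was 0.40 beside −0.10 for all genes. At 14 h 2 rose and 7 fell against 0 h (37.5% called, beside 31.3% of all genes). Sdhb, of succinate dehydrogenase, stood at 1.33 at 3 h and at −0.72 at 14 h, and Idh3g, of the NAD-linked isocitrate dehydrogenase, at 0.95 and −0.92. The 2 that rose at 14 h were Me1, by 3.63, and Idh1, by 3.295, both NADPH-making enzymes of the cytosol. Idh2, the NADPH-making isocitrate dehydrogenase of mitochondria, fell by 1.08 at 14 h, reading 9.04 in EP2KO and 8.86 in WT, against 10.16 in EP2KO and 9.90 in WT at 0 h. Idh1 read 9.09, 9.37, 11.06 and 12.21 in EP2KO, and 8.87, 9.31, 11.14 and 12.34 in WT, rising at each step in both genotypes. Fh1, fumarase, fell by 1.30 at 14 h and Fbp1, of gluconeogenesis, by 1.27. Of 16 genes of glycogen and gluconeogenesis, 2 rose and 3 fell at 14 h, near the 31.3% of all genes called there.

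Of 9 measured genes of hexosamine synthesis and use and of hyaluronan synthesis, 4 rose and 1 fell at 3 h (55.6% called, beside 43.1% of all genes). Has2, the hyaluronan synthase of cumulus expansion, stood at 4.08. Ugdh, which makes UDP-glucuronate, stood at 0.82 and Gnpnat1, of the hexosamine pathway, at 0.72. From 0 to 3 h Ugdh went from 10.67 to 10.97 in EP2KO and from 10.51 to 11.84 in WT. Oga, which removes a hexosamine from proteins, went from 10.01 to 10.60 in EP2KO and from 9.61 to 10.87 in WT. Gfpt2, of the first hexosamine step, moved opposite ways, from 10.33 to 9.96 in EP2KO and from 10.03 to 10.36 in WT. Of 9 other genes of glycolysis and the pentose phosphate pathway, 2 rose and 3 fell at 3 h, again 55.6% called beside 43.1%. Pgls, which follows the first oxidative step of the pentose phosphate pathway, was the higher of the 2, at 1.12, and it fell to 0.77 below 0 h at 14 h (log2 change −0.77).

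The 25 other measured hypoxia genes did not move as one. At 3 h 6 rose and 5 fell, and at 14 h 7 rose and 3 fell against 0 h, with medians of −0.14 and 0.03. This is 44% and 40% of the list called, beside 43.1% and 31.3% of all genes. Cited2, which competes with HIF-1 for its coactivators, rose by 2.35 at 3 h and by 3.54 at 14 h. Ndrg1, a stress-induced gene, rose by 3.06 at 14 h, reading 11.19 in EP2KO and 11.25 in WT at 14 h, against 8.08 in EP2KO and 8.24 in WT at 0 h. Bhlhe40, a transcriptional repressor, stood at 2.57 at 14 h, Vegfc, a lymphatic growth factor, at 2.04 and Ddit4, an inhibitor of mTOR signalling, at 1.32. Bnip3, a mitophagy receptor that HIF-1 induces, fell by 1.05 at 3 h.

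The genotype contrast asks what the loss of EP2 does to these genes. None of the 35 genes was called between EP2KO and WT over the 4 times, and the background was 0%, since limma called no gene of the array. At an unadjusted p under 0.05, 2 of the 35 and 458 of the 8251 genes passed. The differences averaged over the 4 times ran from −0.15 for Pfkfb2 to 0.28 for Pdk4. At single times no member differed by 1 or more between the 2 arrays, where 0.0364% of genes did at 0 h, 0.485% at 3 h, 0.145% at 9 h and 0.206% at 14 h. These single-time values have no replicate and no test.

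The direction of the small differences depended on the time. At 0 h 28 of the 35 genes read higher in EP2KO than in WT, with a median difference of 0.28 beside 0 for all genes. At 9 h 23 read higher, with a median of 0.18. At 3 h 15 read higher and 19 lower, with a median of −0.01, and at 14 h 12 read higher and 22 lower, with a median of −0.08. Under quantile normalization the medians were 0.17, −0.01, 0.10 and −0.04 at 0, 3, 9 and 14 h. The Gapdh 3' minus 5' difference was 1.48 in EP2KO against 1.86 in WT at 0 h, 0.96 against 0.80 at 3 h, 1.22 against 1.71 at 9 h and 2.82 against 2.87 at 14 h. The standard deviation over probe sets was 1.84 in EP2KO and 1.77 in WT at 0 h. The part of either in the differences was not tested.

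**Figure D4:**
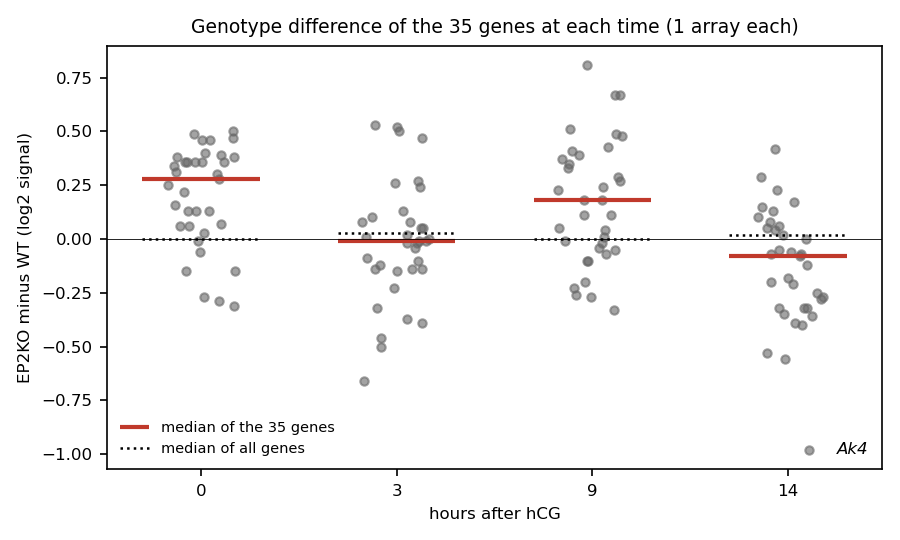
Difference in log2 signal, EP2KO minus WT (y axis), of each of the 35 genes by hours after hCG (x axis), with 1 array per genotype and time. Red bars are medians of the 35 genes and dotted lines medians of all 8251 genes. The points sit mostly above 0 at 0 and 9 h, and Ak4 lies lowest at 14 h.

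A last contrast asked whether the EP2KO minus WT difference at 14 h departs from its mean at 0, 3 and 9 h. None of the 35 genes passed, beside 0.0848% of all genes (7 of 8251, with 0.0606% higher and 0.0242% lower), and 7 members did at an unadjusted p under 0.05, where 646 of all genes did. The 14 h difference is a single pair of arrays, which this model fits exactly, so the spread behind its SE comes from the 6 earlier arrays. The median departure was −0.18 for the 35 genes and 0.01 for all genes. The lowest was that of Ak4, the mitochondrial adenylate kinase that hypoxia induces, named here after its values were seen. Ak4 read 8.69, 8.88, 9.10 and 8.67 in EP2KO at 0, 3, 9 and 14 h, and 8.31, 8.64, 8.67 and 9.65 in WT. EP2KO was the higher genotype at 0, 3 and 9 h and the lower by 0.98 at 14 h, where WT alone had gone up. The departure was −1.33 ± 0.198 (SE from the earlier arrays; adjusted p = 0.0537), and that of its other probe set was −0.70 (adjusted p = 0.564).

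Bnip3, from the list of other hypoxia genes, departed in the same direction by −1.56 ± 0.225 (adjusted p = 0.0466). It read 9.30, 8.43, 8.37 and 8.99 in EP2KO, and 8.98, 7.76, 8.14 and 10.14 in WT, so that WT at 14 h was the highest array of the 8. Its adjusted p was 0.0445 with a trend in the variance prior, and in all other alternatives it was between 0.0514 and 0.846. Pfkl departed by −1.02, Ldha by −0.84 and Pdk1 by −0.73, and Egln1, the oxygen sensor that marks HIF for breakdown, by −0.83; none of these passed, with adjusted p from 0.218 to 0.426. Ldha, for example, read 12.35 in EP2KO and 12.91 in WT at 14 h, while at 0 and 9 h EP2KO was the higher. Vegfa, by contrast, read 7.12 in both genotypes at 14 h, with a departure of −0.07, and Ndrg1 departed by 0.15. The leukocyte and oviduct epithelium sums at 14 h were the higher in EP2KO and the granulosa and cumulus sum the higher in WT, as given above, and their part in these departures was not tested.

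**Figure D5:**
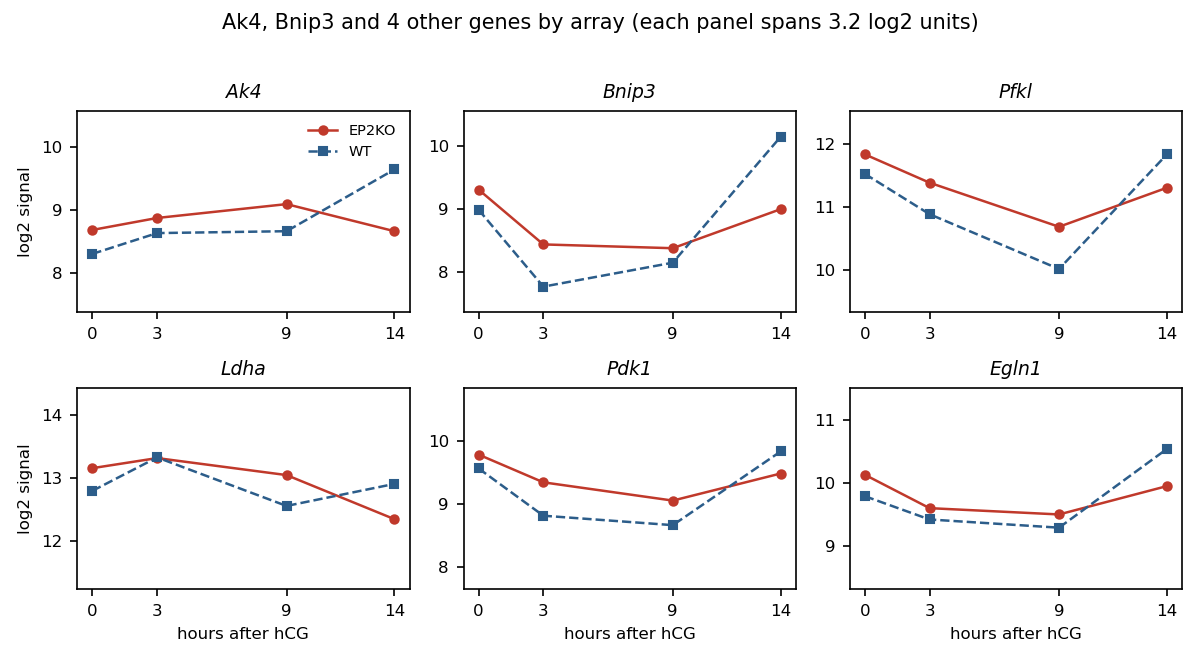
Log2 signal (y axis, each panel spanning the same width) of Ak4, Bnip3, Pfkl, Ldha, Pdk1 and Egln1 against hours after hCG (x axis), 1 array per point, EP2KO as red circles with solid lines and WT as blue squares with dashed lines. In each panel EP2KO lies at or above WT at 0 and 9 h and below WT at 14 h.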

How the data were processed

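Per the labels the arrays were an Affymetrix mouse expression design, and per the labels' protocols 100 ng of total RNA was amplified in 2 rounds. The authors summarised probes with RMA, per the submitters' processing notes, which name no version. The deposited log2 values, rounded to 2 decimals, were not normalized again. Of 12488 probe sets 66 controls were left out, which leaves 12422 tested. No filter on low values was applied, so dim probe sets may lie near background. Symbols come from the platform annotation, and only probe sets with 1 symbol were named.

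Fits used R 4.3.3 and limma 3.58.1 (lmFit and eBayes, two-sided, Benjamini-Hochberg, threshold 0.05) on all 8 arrays. Time contrasts and the genotype contrast had time and genotype as terms, leaving 3 residual degrees of freedom beside a prior of 7.24. The departure at 14 h added an interaction term. Promoter windows are those of RefSeq. Protein sequences were not used here. The genes, lists and naming rule were chosen with earlier results of these data known. All members could be named, and those called with at least a 2-fold change are given with all 8 values. Of the other lists, called genes with large changes are named, with Ak4 and Egln1 at 14 h added after their values were seen. Alternatives were median centring, quantile normalization, leaving out the lowest 40% of probe sets, a variance trend, averaged probe sets, fewer arrays and each array left out.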

Additional observations from a re-analysis of the deposited data

Results flagged for a closer look

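The Bnip3 difference between the genotypes at 14 h departed from that at the earlier times, with a log2 departure of −1.56 (limma interaction term, adjusted p = 0.0466). The 14 h pair has no spread of its own, and the spread in the test comes from the 6 earlier arrays. At 14 h it read 8.99 in EP2KO and 10.14 in WT, while at 0, 3 and 9 h EP2KO was the higher. The call ended under 4 of the 5 alternatives that kept all arrays and in each of the 6 fits that left out an earlier array, with a departure between −1.645 and −1.425 in those 6.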

How the results depend on the processing

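The number of members called stayed within 1.5 times its value under median centring, quantile normalization, the filter on low values, the variance trend and averaged probe sets in all 7 contrasts. With only the 4 arrays of the times compared, 7 of 35 were called from 3 to 9 h, in place of 12, and 2 from 9 to 14 h, in place of 13; these fits have fewer samples. Leaving out 1 array gave 7 to 16 called at 3 h against 0 h, 7 to 14 at 9 h, 6 to 12 at 14 h, 4 to 15 from 3 to 9 h and 8 to 13 from 9 to 14 h, and 0 for the genotype contrast and the departure. Without both 14 h arrays, an alternative added after seeing the data, 16 were called at 3 h and 12 at 9 h against 0 h, and 15 from 3 to 9 h. Of the values of called members, and of Ak4 and Bnip3 at 14 h, under an alternative, 782 kept direction and side of the threshold, 140 kept the direction but not the call, and 1 reversed: with probe sets averaged, Ldhb at 3 h was −0.003, since its 2 probe sets point opposite ways. No pairing by replicate number was possible because that number is the same on all arrays. The time contrasts already hold genotype as a term, and the genotype contrast holds time, which pairs the EP2KO and WT array of each time. With 8 arrays, their number sets the precision.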
